A study of Mus musculus with 24 samples.

Results

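Intergenic primed enhancers of mouse dentate gyrus neurons were taken from the authors' table of H3K27ac peaks as the rows whose chromatin state was primed enhancer, whose annotation placed them between genes and whose width was under 10000 bp. The rule found 8285 of 144154 peaks (5.75%), which is 24.5% of all primed-enhancer peaks and 19.1% of all intergenic peaks. The mark was read by chromatin immunoprecipitation sequencing (ChIP-seq) of nuclei sorted for NeuN, a nuclear protein of neurons. They came from male C57BL/6J mice at 12 weeks of age, and the labelled tissue was dentate gyrus. The sample titles name the hippocampus. The 4 groups had 3 libraries each. HDACi-CFC mice were given 30 mg/kg of the class I histone deacetylase inhibitor CI-994 into the peritoneum 1 h before contextual fear conditioning (CFC), which was 3 min of habituation and then 2 foot shocks of 1 s at 0.2 mA. HDACi-Context mice had the same dose and stayed as long in the chamber without shock (Context). Veh-CFC and Veh-Context mice had the vehicle in place of CI-994 before the shocks or before the chamber alone. Mice of all groups were killed 1 h after the test. Drugs were assigned at random, but a whole cage had the same behaviour, so an effect of shock cannot be told apart from that of the cage.

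A primed enhancer is a distal regulatory element that carries histone methylation typical of enhancers but little or no acetylation until a stimulus arrives, whereas an active enhancer carries acetylation of histone H3 at lysine 27 (H3K27ac). Class I histone deacetylases remove such acetyl groups, and an inhibitor lets them persist. In neurons, activity-regulated transcription factors such as the Fos and Jun proteins bind many distal elements, and Neurod1 is a lineage factor of dentate granule cells. The authors assigned the state from a chromatin map that is not given in the sources used here. In these libraries every such region was an H3K27ac peak, so "primed" names the assigned state and not a lack of the mark.

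No genome sequence was at hand for whole regions, so sequence is shown from RefSeq promoter windows (build GRCm38.p6, 250 bases before to 50 bases after an annotated start) that lie whole inside a region. There were 139 such windows in 115 regions, and most belong to long non-coding RNAs. The first 3 windows below lie in regions chosen, among those 115 only, for the strongest evidence of a change. They are Gm46228 for a drug rise (beside the demethylase-family gene Jmjd1c) and Gm38601 for a rise with CFC (beside the vesicular zinc transporter gene Slc30a3). The third is Gm32184 for a drop with CFC (beside Tmem170b). The other 4 hold the AP-1 type motif TGANTCA in regions that rose with CFC (Dll1, a Notch ligand, and Gm46116) or fell with it (Gm30125, beside the transcription factor gene Foxo1, and Gm30056, beside Capza3). Each is printed 5′ to 3′ on the strand of its transcript, and capitals mark TGANTCA, which the first 3 windows do not hold.
Gm46228: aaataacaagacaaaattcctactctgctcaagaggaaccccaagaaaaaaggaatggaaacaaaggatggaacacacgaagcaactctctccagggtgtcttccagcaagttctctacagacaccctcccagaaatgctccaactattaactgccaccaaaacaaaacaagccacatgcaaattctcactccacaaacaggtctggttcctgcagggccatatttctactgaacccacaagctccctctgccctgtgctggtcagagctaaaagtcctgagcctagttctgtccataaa
Gm38601: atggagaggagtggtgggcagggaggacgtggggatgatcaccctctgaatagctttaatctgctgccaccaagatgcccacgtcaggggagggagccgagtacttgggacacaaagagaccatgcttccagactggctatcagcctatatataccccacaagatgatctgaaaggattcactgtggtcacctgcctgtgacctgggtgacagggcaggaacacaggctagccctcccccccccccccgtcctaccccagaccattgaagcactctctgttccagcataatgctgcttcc
Gm32184: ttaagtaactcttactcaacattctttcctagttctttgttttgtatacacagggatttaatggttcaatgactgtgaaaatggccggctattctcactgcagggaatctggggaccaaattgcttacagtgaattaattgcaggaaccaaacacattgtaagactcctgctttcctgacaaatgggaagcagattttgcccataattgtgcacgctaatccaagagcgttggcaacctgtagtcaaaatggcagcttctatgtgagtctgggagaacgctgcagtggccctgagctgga
Dll1: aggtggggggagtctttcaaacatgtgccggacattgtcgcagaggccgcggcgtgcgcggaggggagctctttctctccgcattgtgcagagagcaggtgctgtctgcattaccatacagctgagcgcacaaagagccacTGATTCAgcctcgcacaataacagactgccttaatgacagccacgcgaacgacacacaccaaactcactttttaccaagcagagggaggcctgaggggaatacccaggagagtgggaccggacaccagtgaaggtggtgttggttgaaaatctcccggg
Gm46116: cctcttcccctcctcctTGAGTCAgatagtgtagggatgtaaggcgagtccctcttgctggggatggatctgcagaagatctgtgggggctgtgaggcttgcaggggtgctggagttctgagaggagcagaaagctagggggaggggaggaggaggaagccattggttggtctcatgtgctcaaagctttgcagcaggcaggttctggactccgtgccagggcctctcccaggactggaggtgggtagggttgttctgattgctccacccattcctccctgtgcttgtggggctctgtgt
Gm30125: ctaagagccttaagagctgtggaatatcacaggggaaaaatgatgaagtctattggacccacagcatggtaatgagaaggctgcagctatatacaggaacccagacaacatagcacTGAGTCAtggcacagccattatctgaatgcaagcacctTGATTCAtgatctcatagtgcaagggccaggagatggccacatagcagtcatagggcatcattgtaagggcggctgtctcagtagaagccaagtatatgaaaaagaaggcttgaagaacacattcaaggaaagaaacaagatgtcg
Gm30056: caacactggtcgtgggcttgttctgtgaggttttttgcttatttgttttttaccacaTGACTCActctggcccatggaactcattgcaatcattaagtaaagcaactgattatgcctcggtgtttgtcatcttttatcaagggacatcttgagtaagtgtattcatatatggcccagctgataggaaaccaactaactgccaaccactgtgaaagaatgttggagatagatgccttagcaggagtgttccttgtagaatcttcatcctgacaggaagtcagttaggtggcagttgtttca

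The Dll1 window is chr17:15376883-15377182 on the minus strand, in the region chr17:15376428-15382664. The Gm46228 window is chr10:67123600-67123899 on the minus strand, in the region chr10:67117893-67126700. The Gm38601 window is chr5:31083802-31084101 on the minus strand, in the region chr5:31078243-31087587. The Gm32184 window is chr13:41571457-41571756 on the minus strand, and the Gm30056 window is chr6:140101148-140101447, also on the minus strand. The Gm46116 window is chr9:61056968-61057267 and the Gm30125 window is chr3:52237197-52237496, both on the plus strand. TGANTCA was searched on both strands, as was CAGATG, an E-box of the kind bound by Neurod1. TGANTCA was in 19 of the 139 windows (13.7%) and in 2565 of 32851 windows of the whole table (7.81%). CAGATG was in 36 of the 139 (25.9%) and in 5635 of the whole table (17.2%). A match says only that these letters are there.

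The regions were narrow and far from genes. Their median width was 1065 bp, against 1198 bp for all other peaks and 1223 bp for intronic primed enhancers. The median distance to the named transcription start site (TSS) was 44678 bp, against 24952 bp for intronic primed enhancers. Together they covered 10.7 Mb, and 4615 gene symbols stood beside them. The symbol is the authors' annotation of the start nearest in their map and not a shown target. Most regions stood alone: 5890 (71.1%) had no other within the gap commonly used to stitch enhancers together. The largest chain held 18 regions in chr9:27800691-27872493, beside Spata19. In RefSeq, 6369 (76.9%) overlapped no gene, 1146 (13.8%) overlapped a long non-coding RNA and 684 (8.26%) a protein-coding gene, although the authors' annotation calls all of them intergenic. The X chromosome held 27 of them, 0.326% of the set, against 1.74% of all peaks.

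Acetylation per length was close to that of other peaks. Levels are in CPM, counts divided by the normalised library total, and their median was 2.79 CPM per kb in these regions, 2.86 in intronic primed enhancers, 2.93 in intergenic active enhancers and 2.67 in intergenic peaks of the state named control. The highest level, 7.36 CPM per kb, lay at chr3:128518448-128521771 beside D030025E07Rik. It was followed by a region of 7.25 CPM per kb beside Lsm2, a subunit of an RNA-binding ring of splicing and decay, and by 7.16 CPM per kb beside Cobl, an actin nucleator. The total count in peaks was 6639158 to 16734757 per library. A region's median count over the libraries had a median of 31, so narrow regions rest on few reads, and 2 of the 8285 fell under the count filter. They lay on chromosome 4 beside Melk and Igsf21, and 8283 were tested.

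The share of each library's counts that fell in these regions differed between the behaviours. It was 2.97, 2.91 and 2.94% in HDACi-CFC and 3.74, 3.79 and 4.06% in HDACi-Context libraries. It was 2.83, 2.91 and 2.98% in Veh-CFC and 3.44, 3.54 and 3.31% in Veh-Context libraries. All 6 CFC libraries lay under all 6 Context libraries, and the HDACi-Context libraries stood above the other groups. CFC libraries averaged 2.92 ± 0.0520% and Context libraries 3.65 ± 0.271% (SD, 6 libraries per behaviour). A two-sided exact permutation of the labels within each treatment gave p = 0.005, the smallest possible, and an adjusted p of 0.0125 over 10 such tests. HDACi libraries averaged 3.40 ± 0.518% and Veh libraries 3.17 ± 0.298% (SD, 6 per treatment), with an exact permutation p of 0.03 and an adjusted p of 0.0429. That difference, 0.233 percentage points, was 0.216 in regions under 5000 bp and 0.116 in those at least 50 kb from a start site, and passed in neither. HDACi minus Veh was 0.0322 percentage points under CFC and 0.434 under Context, a difference between behaviours that did not pass (exact permutation p = 0.075, adjusted p = 0.188). A share is relative to the rest of a library: no spike-in was used here, so a lower share and a lower amount of the mark cannot be told apart.

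**Figure D1:**
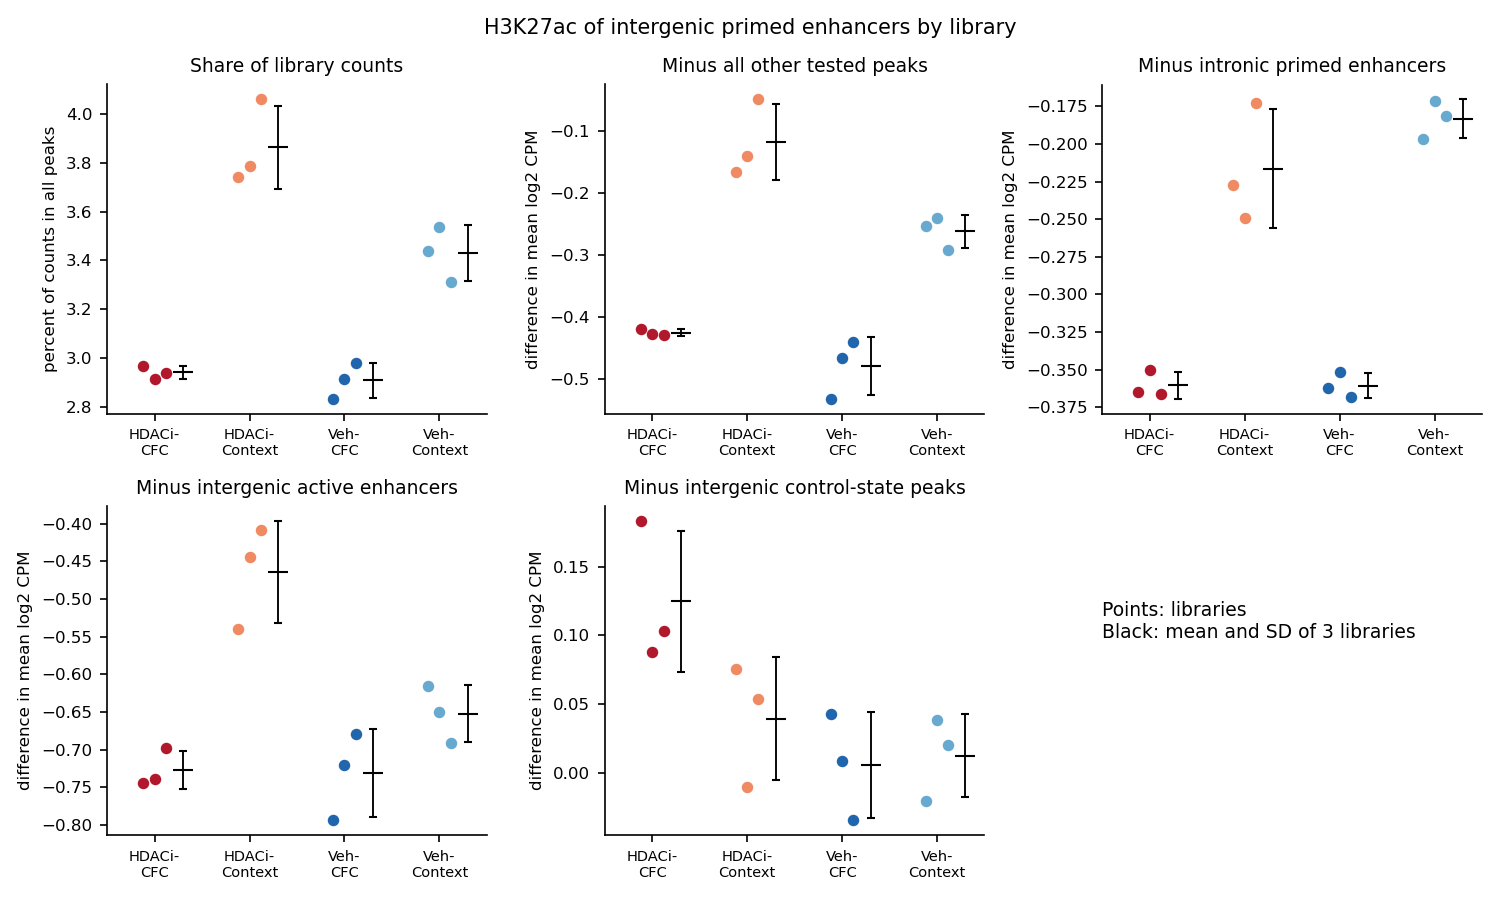
The share of each library's counts in intergenic primed enhancers (percent) and their mean log2 CPM relative to other peak classes, by group; each point is a library, and black bars are the mean and SD of 3 libraries. The CFC libraries hold 2.83 to 2.98% of their counts in these regions and the Context libraries 3.31 to 4.06%.

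Few intergenic primed enhancers were called for CI-994 in shocked mice. In HDACi-CFC against Veh-CFC, 35 rose and 7 fell of 8283 at an adjusted p under 0.05 in edgeR, which is 0.507%, against 0.918% of all peaks tested (0.483% higher and 0.435% lower). The median log2 fold change (HDACi-CFC over Veh-CFC) was 0.03. Leaving out any of the 6 libraries moved the share called by over 1.5 times, to 0.821% without Veh-CFC replicate 1 and to between 0.0483 (without HDACi-CFC replicate 3) and 0.193% without each of the others. All 42 called regions had no overlap between the 3 HDACi-CFC and the 3 Veh-CFC libraries, as had 15.5% of all intergenic primed enhancers and 17.1% of all peaks.

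The region chr5:132544088-132545568, 1608 bp upstream of a start of Auts2, a neurodevelopmental gene whose product acts with Polycomb proteins, held 7.03, 4.89 and 7.64 CPM in HDACi-CFC and 3.6, 3.08 and 3.11 CPM in Veh-CFC libraries. It rose by 1.01 on the log2 scale (SE 0.22, adjusted p = 0.0100). The region beside Bcor, a corepressor of the Polycomb family complexes, at chrX:11799826-11801269 held 5.00, 5.62 and 5.63 CPM in HDACi-CFC and 3.34, 2.65 and 1.70 CPM in Veh-CFC libraries (log2 fold change 1.06, SE 0.24, adjusted p = 0.0161). Neither pair of groups overlapped. Further rises lay beside Gcnt1, a glycosyltransferase of O-glycan branching (chr19:17285270-17286439, log2 fold change 1.21, SE 0.28), and Fat1, an atypical cadherin (chr8:44376960-44378274, 1.27, SE 0.30), at adjusted p = 0.0186 and 0.0242. The call beside Fat1 was lost without each of the 6 libraries in turn, that beside Gcnt1 without 5 of them, Bcor without 4 and Auts2 without 3, with adjusted p reaching 0.104 beside Auts2 and 0.166 beside Gcnt1.

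In mice that saw the chamber without shock more intergenic primed enhancers were called for the drug, mostly upward. The share called was also larger over all peaks, 8.58% against 0.918% in CFC mice. The median SE of these regions was 0.244 here and 0.284 in CFC mice. The drug by behaviour interaction, the difference between the 2 drug effects, was called at 0 of 8283 regions, so a larger effect in Context mice was not shown. In HDACi-Context against Veh-Context, 332 rose and 85 fell (5.03%, against 8.58% of all peaks). All peaks leaned the other way, with 2.73% higher and 5.85% lower. The median log2 fold change was 0.12 in these regions, 0.16 in intronic primed enhancers and −0.08 in intergenic active enhancers. Intergenic control-state peaks also leaned upward, with a median of 0.09, 451 rises and 271 drops. Scaling by library totals gave 503 rises and 54 drops, so rises were 90.3% of the calls in place of 79.6%. The share called was 7.74% without HDACi-Context replicate 1, 1.73% without replicate 2 and 1.85% without replicate 3 of that group, and 3.33% without Veh-Context replicate 2 and 1.5% without replicate 3.

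The clearest rise was beside Sowahb at chr5:93051275-93053342, 7286 bp upstream of its start. It held 10.2, 10.8 and 10.3 CPM in HDACi-Context and 4.78, 5.15 and 3.75 CPM in Veh-Context libraries. It also held 6.95, 6.76 and 6.64 CPM in HDACi-CFC and 3.47, 4.56 and 3.82 CPM in Veh-CFC libraries. Drug and vehicle libraries did not overlap in either behaviour. The log2 fold change was 1.22 in Context mice (SE 0.17, adjusted p = 3.63e-06) and 0.99 over both behaviours (SE 0.13, adjusted p = 5.21e-07).

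Other rises in Context mice lay beside listed genes of guidance, potassium channels and granule cells. Beside Crnde, a long non-coding RNA gene, chr8:92252267-92253901 held 5.07, 6.38 and 8.16 CPM in HDACi-Context and 2.76, 2.65 and 3.09 CPM in Veh-Context libraries (log2 fold change 1.19, SE 0.21, adjusted p = 1.63e-04). Beside Kcnq3, a subunit of the M-current channel that restrains firing, chr15:66313600-66315735 held 10.8, 12.2 and 12.3 CPM in HDACi-Context and 7.84, 6.92 and 7.06 CPM in Veh-Context libraries (0.69, SE 0.15, adjusted p = 0.00199). The groups did not overlap at either. Beside Sema6d, a transmembrane semaphorin, chr2:123485943-123488174 rose by 0.80 (SE 0.17, adjusted p = 0.00175). Beside C1ql3, a secreted synaptic organiser expressed in granule cells, chr2:13040503-13041493 rose by 0.89 (SE 0.24, adjusted p = 0.0126). A drop lay beside Dsp, a desmosomal protein and granule-cell marker, at chr13:38102539-38104537 (log2 fold change −0.58, SE 0.17, adjusted p = 0.0222). The last call ended in 4 of 18 alternative settings and that beside C1ql3 in 3 of 18.

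Over both behaviours 396 regions rose with the drug and 112 fell (6.13%, against 9.33% of all peaks, of which 3.52% rose and 5.81% fell), with a median log2 fold change of 0.07. The share called was 3.97% without Veh-Context replicate 3. Of these 508, 87 had all 6 HDACi libraries on 1 side of all 6 Veh libraries, which held for 1.27% of all intergenic primed enhancers and 2.19% of all peaks. The CFC and Context comparisons share no library: 21 regions rose in both, which is 60.0% of the 35 and 6.33% of the 332. Another 5 fell in both (71.4% of 7 and 5.88% of 85), and 0 went opposite ways. The overlap over all peaks is not given beside these shares, and both comparisons used a spread estimated over all 12 libraries.

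Beside Plxna2, a semaphorin receptor, chr1:194605824-194608256 held 12.6, 9.67 and 12.9 CPM in HDACi-CFC, 12.4, 16.8 and 19.3 in HDACi-Context, 5.78, 7.53 and 5.66 in Veh-CFC and 8.51, 14.4 and 9.56 in Veh-Context libraries. The log2 fold change over both was 0.76 (SE 0.13, adjusted p = 1.05e-04), with 1 Veh-Context library inside the HDACi range. The largest drop was beside Prrc2b, where chr2:32136765-32137914 held 4.42, 5.62 and 4.62 CPM in HDACi-CFC, 2.92, 3.01 and 2.45 in HDACi-Context, 11.2, 8.80 and 6.37 in Veh-CFC and 6.79, 7.07 and 6.54 in Veh-Context libraries. All HDACi libraries lay under all Veh libraries (log2 fold change −1.07, SE 0.14, adjusted p = 5.53e-07). Beside Bmf, a pro-apoptotic member of the Bcl-2 family, chr2:118553268-118554836 fell by 0.82 (SE 0.12, adjusted p = 4.84e-06). Beside Lsm2, chr17:34979669-34981807 held 9.86 to 14.3 CPM (median 12.0) in the 6 HDACi and 14.4 to 22.5 CPM (median 19.2) in the 6 Veh libraries (−0.70, SE 0.11, adjusted p = 8.55e-06). Beside Arhgap4, chrX:73914315-73916031 fell by 0.91 (SE 0.15, adjusted p = 2.83e-05). The drops lay 1116 to 13809 bp upstream of the named start, while Sema6d and the region beside Mir3961, chr13:82316038-82318395 (0.95, SE 0.14, adjusted p = 6.98e-06), lay at 602911 and 381117 bp.

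Relative to other classes in the same library, intergenic primed enhancers stood higher against peaks at large in HDACi than in Veh libraries. The difference against intronic primed enhancers did not pass over all regions. It was lower in the bin of fewest genes, and less steadily so in the next 2 bins. Their mean log2 CPM minus that of all other peaks was −0.272 ± 0.172 in HDACi and −0.370 ± 0.124 in Veh libraries (SD, n = 6 each), a difference of 0.0983 (exact permutation p = 0.005, adjusted p = 0.0125). Minus intronic primed enhancers, HDACi and Veh libraries differed by −0.0165 over all regions (exact permutation p = 0.28). Within bins of gene density, chosen after values had been seen, HDACi minus Veh was −0.0764 with 0 to 2 protein-coding genes within 500 kb, −0.0354 with 3 to 5 and −0.0305 with 6 to 10 (exact permutation, adjusted p = 0.00889, 0.0436 and 0.0400). It was −0.0148 with 11 to 20 genes and 0.0280 with more than 20 (exact permutation, adjusted p = 0.587 and 0.246). With each library left out in turn, the bin of 0 to 2 genes passed in all 12 fits (−0.0832 to −0.0711). The bins of 3 to 5 and of 6 to 10 genes kept their outcome in only 4 and 3 of 12 (exact permutation, adjusted p up to 0.124 and 0.12). Minus intergenic control-state peaks the difference was 0.0729 (exact permutation p = 0.025, adjusted p = 0.0417), and minus intergenic active enhancers 0.0962 (exact permutation p = 0.055, adjusted p = 0.0688).

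**Figure D2:**
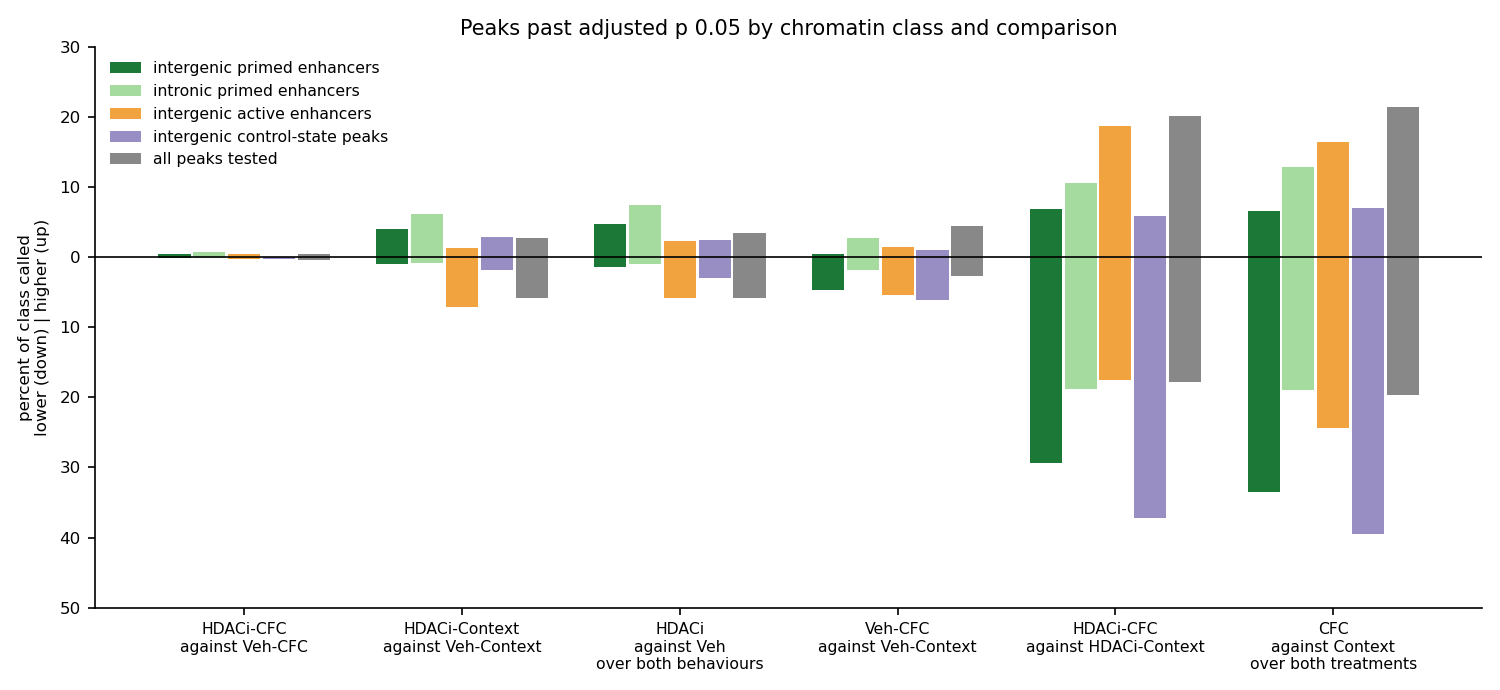
Percent of tested peaks called higher or lower (edgeR, adjusted p under 0.05) in each comparison, for intergenic primed enhancers and for 3 other peak classes. Drug rises in Context mice are 4.01% of intergenic primed enhancers, and drops with CFC over both treatments are 33.6% of them.

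Many of these regions had lower relative acetylation in CFC than in Context libraries, in vehicle and in drug mice. In Veh-CFC against Veh-Context, 41 rose and 391 fell (5.22%, against 7.15% of all peaks, 4.41% higher and 2.74% lower), with a median log2 fold change of −0.20. In HDACi-CFC against HDACi-Context, 574 rose and 2436 fell (36.3%, against 37.9% of all peaks, 20.2% higher and 17.8% lower), with a median of −0.34. Over both treatments 549 rose and 2779 fell (40.2%, against 41.1% of all peaks), with a median of −0.28. The share called was close to the background, and the direction was not. Of all peaks 21.4% rose and 19.7% fell, and of these regions 6.63% rose and 33.6% fell. This lean was not particular to these regions. Of 15448 intergenic control-state peaks 1081 rose and 6110 fell (39.6%), with a median of −0.34. In vehicle mice 153 of those peaks rose and 947 fell (median −0.22). Intronic primed enhancers (12.9% higher, 18.9% lower) and intergenic active enhancers (16.5% and 24.4%) leaned down less over both treatments. In vehicle mice the share of intergenic primed enhancers called was 0.592% without Veh-CFC replicate 1 and 2.97% without replicate 2 of that group. It was 0.833% without Veh-Context replicate 1 and 2.62% without replicate 2 of that group. In drug mice it was 22.6% without HDACi-Context replicate 3. No overlap between the 6 CFC and 6 Context libraries was seen for 757 of the 3328 called regions, and for 9.27% of all intergenic primed enhancers and 10.4% of all peaks.

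The vehicle and drug arms share no library. Of the regions that fell in vehicle mice, 316 of 391 (80.8%) also fell in drug mice, where they were 13.0% of 2436. Of those that rose, 33 of 41 (80.5%) rose in both (5.75% of 574), and 0 went opposite ways. The overlap over all peaks is not given, so none of these shares is shown to be particular to these regions. The spread of each region was also estimated over all 12 libraries for both arms. The difference between the arms, tested as the drug by behaviour interaction, was called at 0 of the 8283 regions in edgeR, against 0.0347% of all peaks (0.034% positive and 0.000694% negative). An unadjusted p under 0.05 in edgeR was held by 232 regions with a positive and 383 with a negative interaction. Over all 144014 peaks tested it was held by 10663 with a positive and 5868 with a negative one (11.5%), an opposite lean. Intronic primed enhancers (527 and 1299) and intergenic control-state peaks (271 and 1065) also leaned negative, and intergenic active enhancers positive (1584 and 275). DESeq2 called the interaction at 1 of the 8283 regions. Without HDACi-Context replicate 1 the interaction was called at 60 regions, 46 positive and 14 negative. The share over all peaks is not given for that fit.

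Drops near neuronal genes were of about 2-fold size. Beside Dlgap1, a scaffold of the postsynaptic density, chr17:69908672-69910355 in the long non-coding RNA Gm36594 held 5.07, 5.30 and 4.54 CPM in HDACi-CFC and 7.51, 8.0 and 8.64 CPM in HDACi-Context libraries. It held 2.57, 3.92 and 2.55 CPM in Veh-CFC and 6.87, 8.39 and 6.62 CPM in Veh-Context libraries. CFC and Context libraries did not overlap (log2 fold change over both −0.96, SE 0.14, adjusted p = 4.56e-07; in vehicle mice −1.22, SE 0.21, adjusted p = 7.61e-04).

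Beside Neurod1, chr2:79498625-79499741 held 2.68, 1.77 and 2.44 CPM in HDACi-CFC and 3.96, 4.93 and 5.24 CPM in HDACi-Context libraries. It held 1.80, 2.23 and 2.27 CPM in Veh-CFC and 3.73, 5.30 and 3.53 CPM in Veh-Context libraries, again without overlap (−0.98, SE 0.17, adjusted p = 2.07e-05). Beside Epha5, an ephrin receptor, chr5:84438975-84440616 held 2.10, 2.29 and 2.52 CPM in HDACi-CFC and 4.59, 7.30 and 6.60 CPM in HDACi-Context libraries, and 1.67, 2.12 and 1.98 CPM in Veh-CFC and 3.14, 2.36 and 4.04 CPM in Veh-Context libraries. CFC and Context libraries did not overlap within a treatment, and the level fell by 1.1 on the log2 scale with CFC (SE 0.18, adjusted p = 5.11e-06). In Context mice the same region rose with the drug by 0.91 (SE 0.21, adjusted p = 0.00404).

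Further drops over both treatments lay beside Adgra3, an adhesion receptor (chr5:49783244-49784477, log2 fold change −1.29, SE 0.18, adjusted p = 7.41e-07), and beside Adgrl2, a latrophilin of synapses (chr3:148746843-148747917, −1.05, SE 0.17, adjusted p = 6.20e-06). They also lay beside Cdh11, a cadherin (chr8:102282777-102284412, −1.02, SE 0.17), Dlg2, a membrane-associated scaffold (chr7:90845315-90846534, −0.92, SE 0.17), and Dusp6, a phosphatase of ERK (chr10:99384056-99384976, −1.11, SE 0.23). Both regions beside Calb1, the calcium buffer of granule cells, fell, by 0.67 (chr4:15789822-15791643, SE 0.15) and 0.65 (chr4:15775622-15776834, SE 0.14). These calls held in every alternative setting tried for them.

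**Figure D3:**
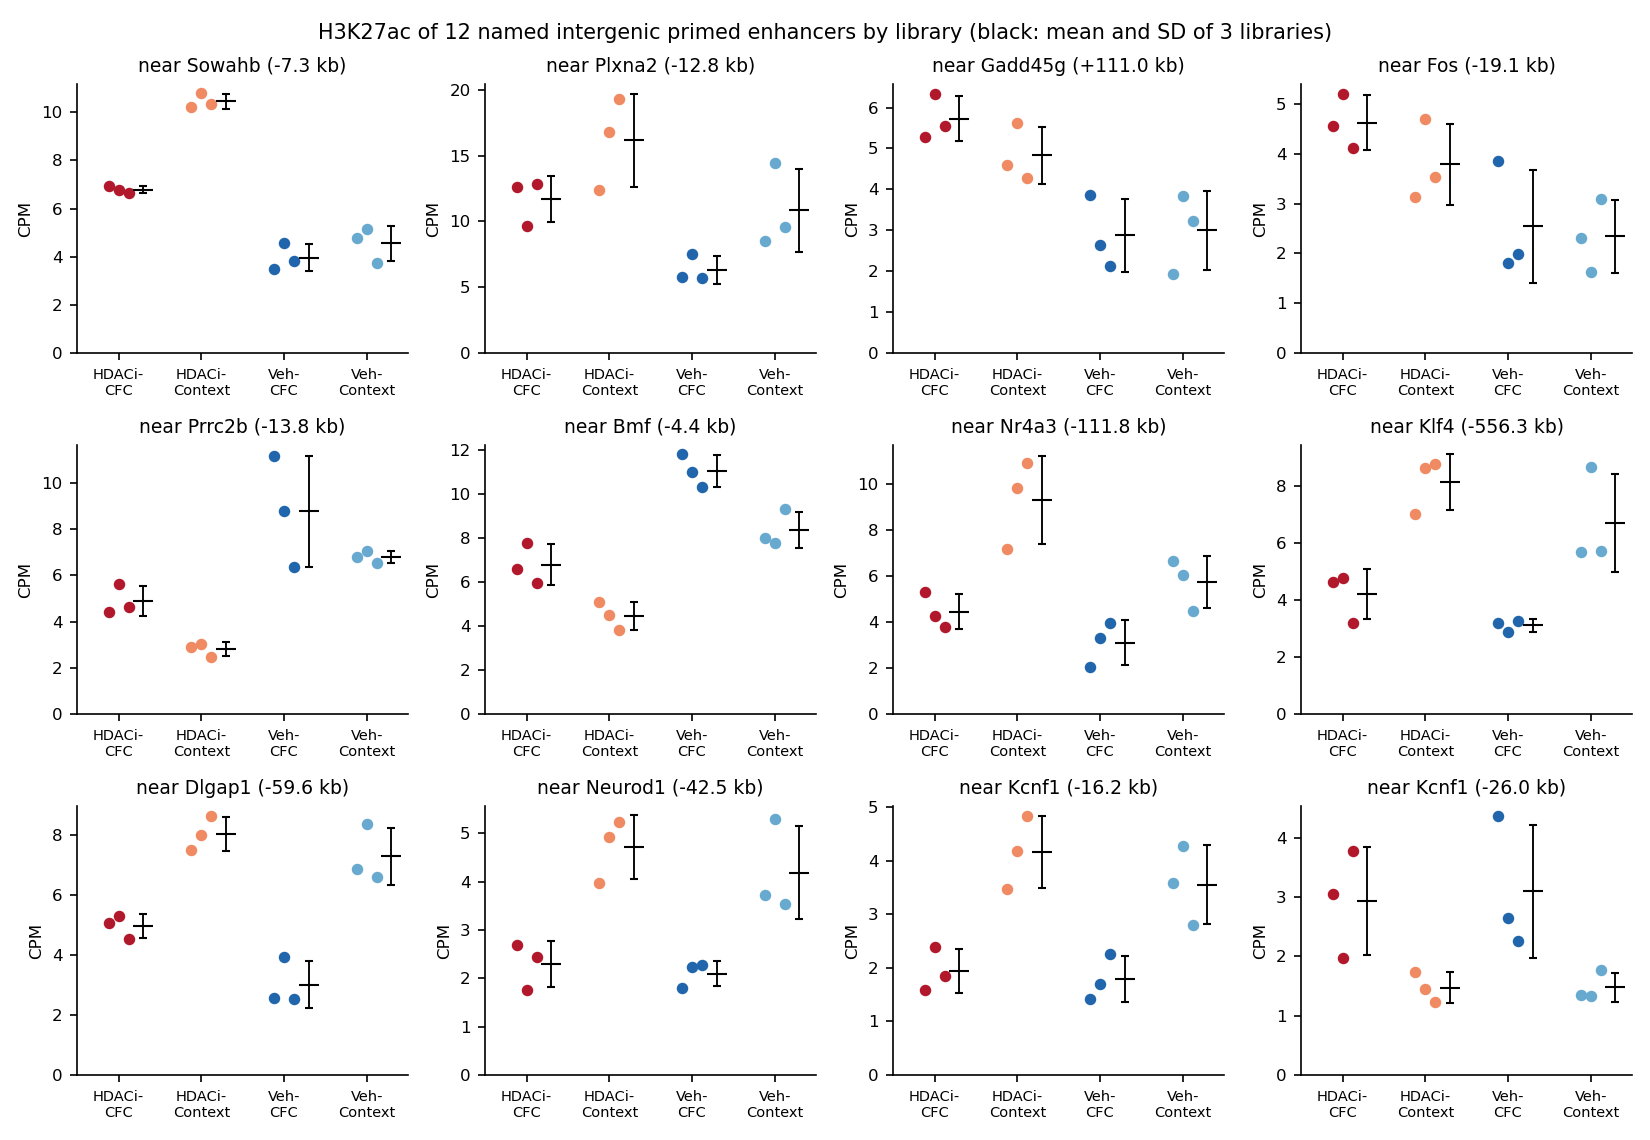
H3K27ac level (CPM) in each library at 12 named intergenic primed enhancers, with the distance to the TSS of the gene named beside each; points are libraries and black bars the mean and SD of 3. HDACi libraries stand above Veh libraries beside Sowahb (6.64 to 10.8 against 3.47 to 5.15 CPM), and CFC libraries stand under Context libraries beside Neurod1 (1.77 to 2.68 against 3.53 to 5.30 CPM).

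Fewer regions rose with CFC, and the largest folds were at narrow regions with few reads. Beside Wdr5, a core subunit of histone H3 lysine 4 methyltransferase complexes, chr2:27564819-27565615 held 2.97, 3.12 and 1.93 CPM in HDACi-CFC and 0.973, 0.348 and 0.544 CPM in HDACi-Context libraries. It held 2.44, 3.08 and 1.84 CPM in Veh-CFC and 1.12, 0.442 and 1.1 CPM in Veh-Context libraries. CFC libraries lay above Context libraries throughout (log2 fold change 1.74, SE 0.26, adjusted p = 1.29e-06), on counts of 13 to 41 in CFC and 3 to 15 in Context libraries. Beside Cacng2, the AMPA receptor auxiliary subunit stargazin, chr15:78125915-78127740 rose by 0.78 (SE 0.17, adjusted p = 4.03e-04). Beside Lrrc4, a netrin-G ligand of the postsynapse, chr6:28889498-28893459 held 15.5, 15.6 and 14.8 CPM in HDACi-CFC and 10.6, 6.90 and 7.21 CPM in HDACi-Context libraries (0.90, SE 0.15, adjusted p = 1.09e-05), and RefSeq places it within the gene Snd1. Beside Tgfb2, chr1:186705673-186708897 rose by 0.35 (SE 0.11, adjusted p = 0.00707).

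Neighbouring regions could move in opposite directions. Beside Kcnf1, a modulatory potassium channel subunit, 2 regions inside the long non-coding RNA Gm36568 were called. At chr12:17192611-17193631 the level was 1.59, 2.39 and 1.85 CPM in HDACi-CFC, 3.48, 4.17 and 4.83 in HDACi-Context, 1.41, 1.70 and 2.27 in Veh-CFC and 3.58, 4.27 and 2.79 in Veh-Context libraries (CFC over Context −1.04, SE 0.19, adjusted p = 2.81e-05). At chr12:17202429-17203269 it was 3.04, 1.98 and 3.78 CPM in HDACi-CFC, 1.74, 1.45 and 1.22 in HDACi-Context, 4.37, 2.65 and 2.27 in Veh-CFC and 1.34, 1.32 and 1.76 in Veh-Context libraries (1.02, SE 0.21, adjusted p = 1.80e-04). CFC and Context libraries did not overlap at either.

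Position went with the size of the CFC difference. With 0 to 2 protein-coding genes within 500 kb, 0.451% of 1551 regions rose and 59.4% fell, with a median log2 fold change of −0.49. The median was −0.36 with 3 to 5 genes, −0.27 with 6 to 10 and −0.10 with 11 to 20. With more than 20 genes 21.2% of 877 rose and 7.98% fell, with a median of 0.11. All other peaks followed the same order, with medians of −0.40, −0.22, −0.07, 0.13 and 0.41, and in each bin the members' median was lower. Among those other peaks 4.30% rose and 50.7% fell with 0 to 2 genes, and 48.2% rose and 3.28% fell with more than 20. By distance, 206 rose and 217 fell of 1417 regions under 10 kb from the TSS, 26 rose and 1084 fell of 2146 at 100 to 500 kb, and 0 rose and 180 fell of 265 beyond 500 kb. Of the 665 regions within 5 kb of a strong-promoter peak 99 rose and 78 fell (median 0.02), and of the other 7618 450 rose and 2701 fell (median −0.30). Among all peaks 21.4% rose and 19.7% fell. Other peaks were not split by distance or by strong-promoter neighbour.

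**Figure D4:**
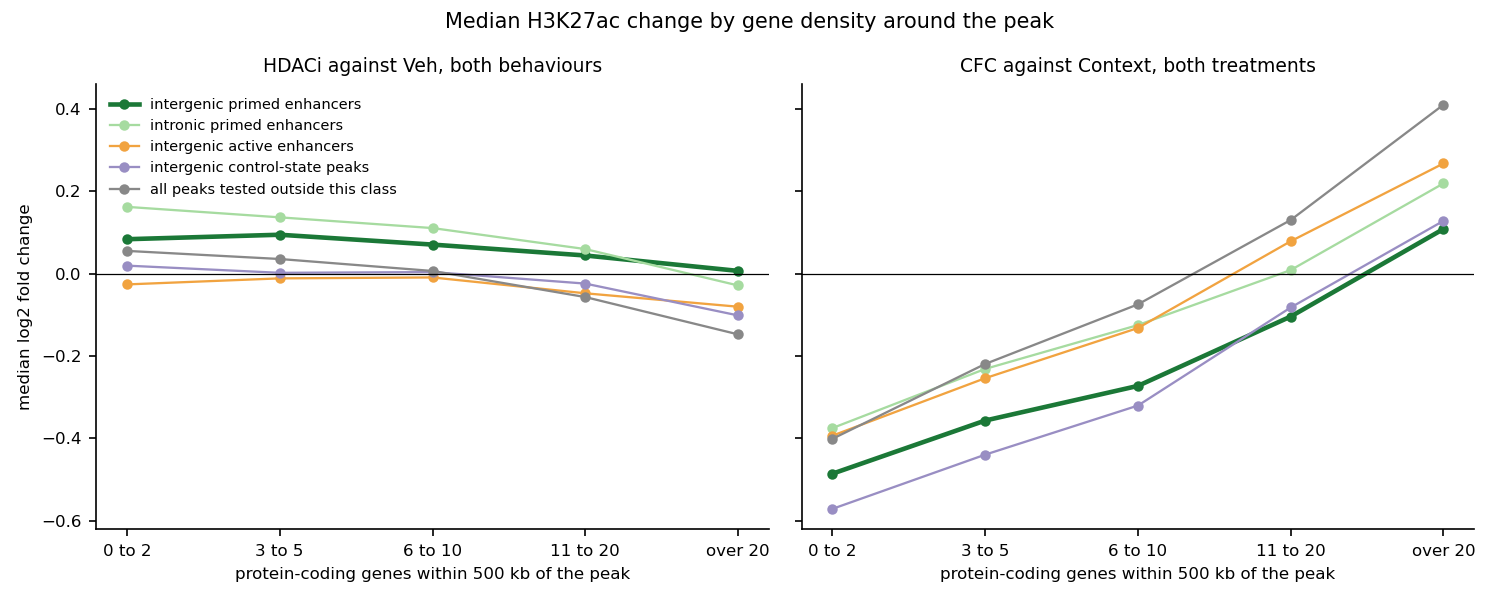
Median log2 fold change by how many protein-coding genes lie within 500 kb, for intergenic primed enhancers and other peaks. The left panel shows HDACi against Veh over both behaviours, and the right panel CFC against Context over both treatments. In the right panel the median of intergenic primed enhancers is −0.49 with 0 to 2 genes and 0.11 with more than 20.

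The same order could be read within each library. The mean log2 CPM of members with 0 to 2 genes minus that of members with more than 20 was −0.0955 to −0.0512 in HDACi-CFC and 0.421 to 0.893 in HDACi-Context libraries, and −0.234 to 0.157 in Veh-CFC and 0.375 to 0.515 in Veh-Context libraries. CFC and Context libraries did not overlap. Intronic primed enhancers gave −0.205 to −0.133 in HDACi-CFC, 0.377 to 0.801 in HDACi-Context, −0.436 to −0.0699 in Veh-CFC and 0.213 to 0.327 in Veh-Context libraries, also without overlap between CFC and Context libraries. These measures were chosen after the bins had been seen. Their tests are not given here, but they count in the adjustment of the density bins.

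**Figure D5:**
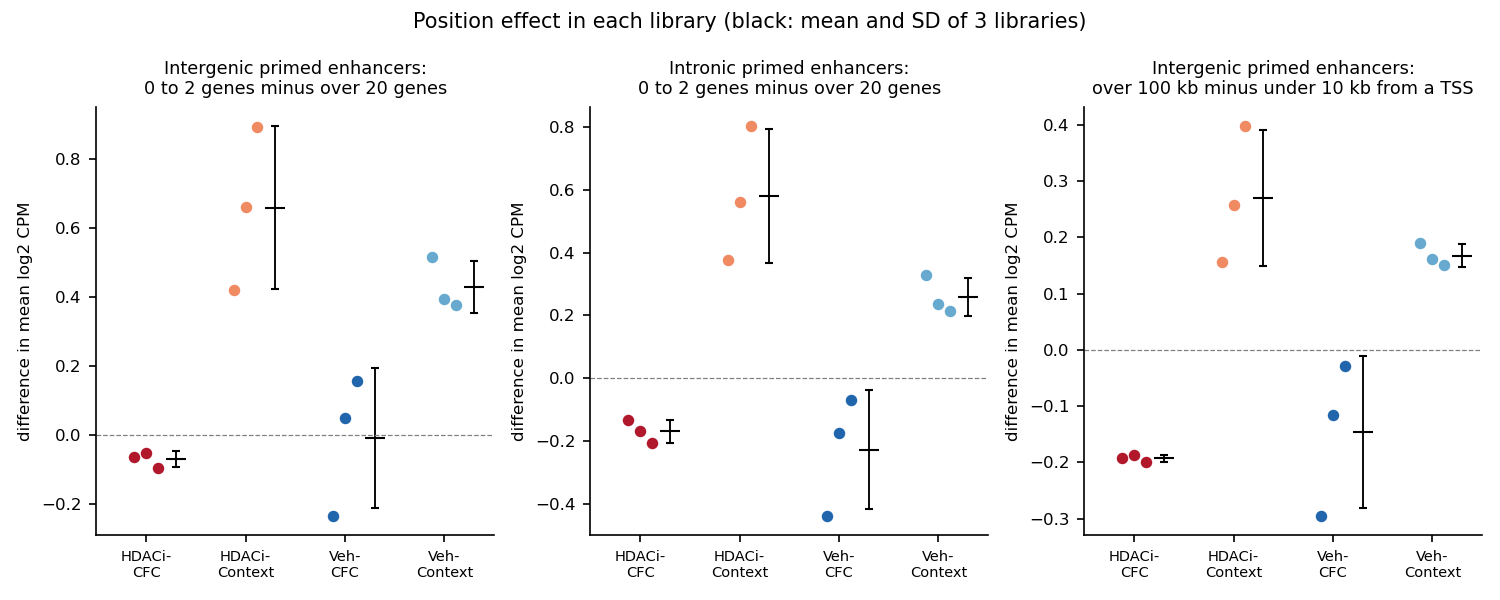
Difference in mean log2 CPM between gene-poor and gene-rich members, between gene-poor and gene-rich intronic primed enhancers, and between members over 100 kb and under 10 kb from a TSS; each point is a library, and black bars are the mean and SD of 3. In members over 100 kb minus those under 10 kb the CFC libraries stand at −0.295 to −0.0289 and the Context libraries at 0.151 to 0.397.

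Intergenic primed enhancers stood lower against intronic ones in CFC libraries than in Context libraries. The mean log2 CPM of members minus that of intronic primed enhancers was −0.361 ± 0.00771 in CFC and −0.200 ± 0.0319 in Context libraries (SD, n = 6 each), a difference of −0.161 (exact permutation p = 0.005, adjusted p = 0.0125). Within bins of gene density, chosen after values had been seen, the difference was −0.101 with 0 to 2 genes, −0.117 with 3 to 5, −0.125 with 6 to 10, −0.0979 with 11 to 20 and −0.136 with more than 20 (exact permutation, adjusted p = 0.00889 in each bin). Here and for the drug, p-values in bins were adjusted over all tests of density measures and not over the 10 other tests. Against all other peaks it was −0.262 (exact permutation p = 0.005, adjusted p = 0.0125) and against intergenic active enhancers −0.170 (exact permutation p = 0.01, adjusted p = 0.02). Against intergenic control-state peaks it was 0.0390 (exact permutation p = 0.195, adjusted p = 0.217), so no difference from that class was shown. The share of counts in strong-promoter peaks moved the other way, at 10.8 to 11.2% in HDACi-CFC, 8.27 to 8.49% in HDACi-Context, 11.8 to 12.8% in Veh-CFC and 10.2 to 10.7% in Veh-Context libraries. Its part in these results was not tested.

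Immediate early genes had regions of both kinds. The list of 30 such genes, which neurons switch on within minutes of activity, had 35 tested regions beside 14 genes. With the drug over both behaviours 8 rose and 0 fell, with a median log2 fold change of 0.14 against −0.02 over all peaks. With CFC 8 rose and 9 fell, with a median of 0.01 against −0.03 over all peaks. For comparison, 4.78% of all intergenic primed enhancers rose and 1.35% fell with the drug (median 0.07), and 3.52% and 5.81% of all peaks. With CFC the shares were 6.63% and 33.6% of all intergenic primed enhancers (median −0.28), and 21.4% and 19.7% of all peaks. The list was not tested against either. The regions below are named because they make up the counts of this list.

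Beside Fos, which encodes an AP-1 subunit, 2 of 3 regions rose with the drug. The region 19120 bp upstream, chr12:85454341-85455199 in the long non-coding RNA Gm38543, held 4.56, 5.20 and 4.12 CPM in HDACi-CFC, 3.13, 4.69 and 3.54 in HDACi-Context, 3.85, 1.80 and 1.98 in Veh-CFC and 2.31, 1.62 and 3.09 in Veh-Context libraries. Only Veh-CFC replicate 1 reached into the HDACi range (log2 fold change 0.75, SE 0.18, adjusted p = 0.00459). The region 5604 bp upstream, chr12:85466797-85469776, held 9.20, 8.22 and 9.66 CPM in HDACi-CFC, 10.7, 10.5 and 11.1 in HDACi-Context, 6.29, 7.32 and 5.24 in Veh-CFC and 7.47, 9.72 and 5.44 in Veh-Context libraries (0.54, SE 0.12, adjusted p = 0.00254). Here Veh-Context replicate 2 lay inside the HDACi range. With CFC their log2 fold changes were 0.16 and −0.22 (adjusted p = 0.520 and 0.147).

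Beside Gadd45g, a stress- and activity-induced gene of the Gadd45 family, 9 regions split by position. The region 110987 bp away, chr13:51956643-51958681, held 5.29, 6.34 and 5.54 CPM in HDACi-CFC, 4.59, 5.62 and 4.28 in HDACi-Context, 3.85, 2.65 and 2.12 in Veh-CFC and 1.94, 3.83 and 3.23 in Veh-Context libraries. All HDACi libraries lay above all Veh libraries (0.86, SE 0.17, adjusted p = 2.78e-04). The region beside it, chr13:51958910-51960018, also rose with the drug (0.64, SE 0.19, adjusted p = 0.0221). With CFC 3 others rose: chr13:51853522-51854177, 7174 bp from the start (1.54, SE 0.33, adjusted p = 2.20e-04), chr13:51916548-51916962 (adjusted p = 0.00625, with 0.425 to 1.3 CPM in CFC and 0.068 to 0.736 CPM in Context libraries) and chr13:51917543-51918612 (1.19, SE 0.33, adjusted p = 0.00786). The first held 11 to 24 counts in CFC and 3 to 13 in Context libraries. None of those 3 was called with the drug.

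Most regions beside Nr4a3, an orphan nuclear receptor, and Klf4, a zinc-finger factor, fell with CFC, and 3 of them rose with the drug. At chr4:47932398-47934513, 111850 bp upstream of Nr4a3, the level was 5.29, 4.26 and 3.78 CPM in HDACi-CFC and 7.16, 9.79 and 10.9 CPM in HDACi-Context libraries. It was 2.06, 3.29 and 3.96 CPM in Veh-CFC and 6.64, 6.04 and 4.48 CPM in Veh-Context libraries. CFC and Context libraries did not overlap within a treatment (CFC over Context −0.96, SE 0.15, adjusted p = 3.30e-06; drug 0.62, SE 0.16, adjusted p = 0.00565). At chr4:56087744-56089810, 556302 bp from Klf4, it was 4.64, 4.78 and 3.19 CPM in HDACi-CFC, 7.02, 8.64 and 8.77 in HDACi-Context, 3.21, 2.86 and 3.26 in Veh-CFC and 5.67, 8.69 and 5.73 in Veh-Context libraries (CFC −1.01, SE 0.15, adjusted p = 6.13e-07). Of the 4 regions beside Nr4a3, 3 fell with CFC, and of the 5 beside Klf4, 4 fell. The region beside Klf4 at chr4:55539496-55542907 rose with the drug (0.46, SE 0.13, adjusted p = 0.0188).

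Other members of the list moved with 1 of the 2 factors. The region 2488 bp upstream of Homer1, a postsynaptic scaffold with an activity-induced isoform, chr13:93298893-93303646, held 19.3 to 25.7 CPM (median 22.2) in HDACi and 15.1 to 20.8 CPM (median 17.7) in Veh libraries (0.34, SE 0.09, adjusted p = 0.0115). Beside Sik1, a salt-inducible kinase, 3 of 4 regions rose with CFC, among them chr17:31789431-31791561 with 6.95, 6.45 and 6.89 CPM in HDACi-CFC, 4.73, 2.43 and 2.11 in HDACi-Context, 5.01, 4.77 and 4.25 in Veh-CFC and 2.99, 4.56 and 3.97 in Veh-Context libraries (0.73, SE 0.16, adjusted p = 3.83e-04). Veh-Context replicate 2 overlapped the Veh-CFC range. Regions beside Atf3 (0.54, SE 0.20, adjusted p = 0.0257) and Dusp1 (0.48, SE 0.19, adjusted p = 0.0365) rose with CFC. The region 3647 bp upstream of a start of Bdnf, the growth factor of synaptic plasticity, chr2:109669771-109672336, fell: it held 5.65, 6.76 and 5.29 CPM in HDACi-CFC, 9.45, 10.5 and 9.39 in HDACi-Context, 5.27, 5.62 and 6.23 in Veh-CFC and 7.17, 8.69 and 5.29 in Veh-Context libraries (−0.50, SE 0.13, adjusted p = 0.00163).

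Regions beside neuronal adhesion, guidance and signalling genes fell with CFC in greater number than they rose. For synaptic adhesion genes 4 rose and 39 fell of 68 (median log2 fold change −0.49), for axon guidance 1 and 31 of 50 (−0.54), for cadherins 0 and 17 of 25 (−0.53) and for cAMP, calcium and MAP kinase signalling 0 and 16 of 26 (−0.59). For voltage-gated potassium channels 1 rose and 24 fell of 48 (−0.40), for glutamate receptors and their scaffolds 2 and 17 of 41 (−0.37), for forebrain transcription factors 0 and 13 of 33 (−0.36) and for neuropeptides and growth factors 1 and 13 of 29 (−0.26). Over all intergenic primed enhancers 6.63% rose and 33.6% fell, with a median of −0.28. Over all peaks 21.4% rose and 19.7% fell, with a median of −0.03. The lists were not tested against either. With the drug the same lists had 1 to 6 rises and at most 1 drop each, with medians of 0.10 to 0.25. Some lists lay under the share of all members, such as synaptic adhesion with 1 rise of 68. Of all intergenic primed enhancers 4.78% rose and 1.35% fell with the drug (median 0.07), and of all peaks 3.52% and 5.81% (median −0.02).

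Several of these genes had many regions. Beside Slitrk1, a synapse-organising membrane protein, 8 of 9 regions fell with CFC, such as chr14:108894736-108896559 with 4.42, 6.03 and 4.96 CPM in HDACi-CFC, 9.04, 9.21 and 11 in HDACi-Context, 5.14, 3.92 and 6.09 in Veh-CFC and 8.51, 7.80 and 6.62 in Veh-Context libraries (−0.77, SE 0.13, adjusted p = 8.20e-06). CFC and Context libraries did not overlap. Beside Kcna4, a potassium channel of the A-type current, 7 of 8 fell with CFC and 2 rose with the drug, among them chr2:107278019-107280090 (drug 0.51, SE 0.12, adjusted p = 0.00335; CFC −0.48, SE 0.12, adjusted p = 0.00153). Rises with the drug also lay beside Kcnip4, an auxiliary subunit of A-type channels (chr5:49306271-49307814, 0.76, SE 0.16), Nrxn3 (chr12:88733231-88735356, 0.51, SE 0.12), Scg2, a secretory granule protein (chr1:79334856-79337532, 0.48, SE 0.12), and Adcy2, an adenylyl cyclase (chr13:69235810-69237508, 0.56, SE 0.15). Drops with the drug lay beside Penk, the enkephalin precursor (chr4:4174680-4176094, −0.44, SE 0.14), and Ryr2, the calcium release channel (chr13:12123998-12127286, −0.35, SE 0.10). The call beside Penk ended in 12 of 17 alternative settings and that beside Ryr2 in 6 of 17.

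By symbol, Opcml, an adhesion molecule of the IgLON family, had most regions, 30, of which 1 rose and 13 fell with CFC (median −0.34). Nav3, a neuronal navigator protein, had 0 rises and 10 drops of 12 (−0.53), Ppargc1a, a coactivator of mitochondrial genes, 0 and 8 of 12 (−0.66) and Auts2 1 and 8 of 14 (−0.45). Nectin1, an adhesion molecule, differed with 4 rises and 0 drops of 13 (0.12). The 18 chained regions beside Spata19 had 0 rises and 2 drops (−0.28). For comparison, 6.63% of all intergenic primed enhancers rose and 33.6% fell with CFC (median −0.28), and 21.4% and 19.7% of all peaks. No symbol was tested against either.

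Regions beside cell type markers were few. With CFC 0 rose and 5 fell of 12 beside dentate granule genes, 0 and 3 of 10 beside CA pyramidal genes, 0 and 4 of 14 beside genes of GABAergic interneurons and 0 and 1 of 8 beside astrocyte genes. It was 0 and 4 of 7 for oligodendrocytes, 0 and 2 of 4 for their precursors, 2 and 1 of 8 for microglia and 1 and 2 of 5 for endothelial and mural cells. For comparison, 6.63% of all intergenic primed enhancers rose and 33.6% fell with CFC, and 21.4% and 19.7% of all peaks. The marker lists were not tested against either. The microglial rises were beside C1qa, a complement subunit (chr4:136916878-136917296, adjusted p = 0.0119, with 0.708 to 1.93 CPM in CFC and 0.136 to 2.21 CPM in Context libraries), and Tyrobp, a signalling adaptor (chr7:30393567-30394846, 0.50, SE 0.18, adjusted p = 0.0208). Promoter peaks of the marker genes moved with behaviour as well. Summed over 9 of 20 granule genes they held 37.5 to 43.4 CPM per kb in HDACi-CFC, 26.3 to 30.3 in HDACi-Context, 36.2 to 43.3 in Veh-CFC and 28.4 to 30.0 in Veh-Context libraries. Over 7 of 18 microglial genes they held 20.8 to 25.4 CPM per kb in HDACi-CFC, 10.8 to 13.3 in HDACi-Context, 19.5 to 27.1 in Veh-CFC and 13.7 to 19.3 in Veh-Context libraries. Over 12 of 18 oligodendrocyte genes they held 38.0 to 53.9 CPM per kb in HDACi-CFC, 31.2 to 37.2 in HDACi-Context, 49.2 to 78.7 in Veh-CFC and 41.0 to 51.6 in Veh-Context libraries. Their part in the results was not tested, and fewer cells of a type and less of the mark per cell cannot be told apart.

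Regions that hold a RefSeq promoter window moved in both directions. Of 115 such regions 14 rose and 1 fell with the drug over both behaviours, and 12 rose and 35 fell with CFC (median −0.16). Of all peaks 3.52% rose and 5.81% fell with the drug, and 21.4% rose and 19.7% fell with CFC; of all intergenic primed enhancers 6.63% rose and 33.6% fell with CFC. The region around Gm46228 held 51.9, 60.4 and 57.5 CPM in HDACi-CFC, 47.3, 52.2 and 51.6 in HDACi-Context, 35.2, 42.4 and 41.2 in Veh-CFC and 38.7, 34.6 and 38.0 in Veh-Context libraries, with all HDACi above all Veh libraries (0.47, SE 0.08, adjusted p = 4.00e-05). The region around Gm38601 held 44.5, 49.3 and 46.0 CPM in HDACi-CFC, 29.4, 26.4 and 18 in HDACi-Context, 36.0, 37.6 and 36.8 in Veh-CFC and 25.6, 22.8 and 25.3 in Veh-Context libraries, with all CFC above all Context libraries (0.75, SE 0.09, adjusted p = 1.54e-08). The region around Gm32184 fell with CFC (−0.86, SE 0.15, adjusted p = 1.67e-05). The Dll1 region held 30.6, 31.0 and 31.3 CPM in HDACi-CFC, 22.3, 22.0 and 19.3 in HDACi-Context, 24.9, 24.1 and 18.7 in Veh-CFC and 17.8, 17.8 and 21.8 in Veh-Context libraries, and rose with CFC (0.39, SE 0.09, adjusted p = 6.12e-04) and with the drug (0.30, SE 0.09, adjusted p = 0.0277). Of the other windows printed, the Gm46116 region rose with CFC (0.93, SE 0.19, adjusted p = 1.28e-04), while the Gm30125 (−0.48, SE 0.12, adjusted p = 0.00162) and Gm30056 (−0.66, SE 0.13, adjusted p = 9.62e-05) regions fell. Of 10 called regions with TGANTCA in such a window, 3 rose with CFC (those of Septin7, Gm46116 and Dll1) and 7 fell.

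Wider regions were called more often with the drug. Over both behaviours 2 rose and 3 fell of 708 regions under 500 bp, and 15 rose and 0 fell of 56 regions of 5000 bp or more, while 3.52% of all peaks rose and 5.81% fell. Other peaks of the same widths were not compared. With CFC 76 rose and 59 fell in the narrowest and 16 rose and 15 fell in the widest class, while 184 rose and 1392 fell of 3242 regions of 1000 to 2000 bp. Wider regions hold more reads, and the part of the read number in these counts was not tested.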

How the data were processed

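H3K27ac ChIP-seq was done on 12 libraries in 4 groups; 12 input samples of the labels had no column and were not analysed here. Raw counts per peak, whole and not normalised, were deposited by the authors for 144154 peaks (mouse build mm10, per the submitters' processing notes). A percent beside each chromatin state was also deposited by the authors, without description, and was not used. The smallest count is 1 in every column, which may stand for 0 in empty cells (0.0885% of the cells of these regions). Tools named in those notes, without roles, were HOMER 4.11, DESeq2 1.28.1, DiffBind 2.16.2, MACS2, SAMtools 1.9, Bowtie2 2.3.5 and Trimmomatic 0.38. Column names give a treatment and replicate but no antibody, and were taken as the H3K27ac libraries. The series text gives other numbers of treatments and replicates than the labels, which were followed. About 750000 nuclei and 14 PCR cycles were used per sample. The labels do not tie libraries to separate mice, so p-values measure only the spread between these samples, which may be technical.

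All peaks were tested in edgeR 4.0.16 (R 4.3.3; quasi-likelihood, TMM, filterByExpr with a minimum count of 10, all 12 libraries in the fit), and Benjamini-Hochberg adjustment ran over all 144014 peaks that passed. Of the 7 contrasts, those over both behaviours or treatments average the 2 arms. Library measures were means of log2 CPM (prior count 2), compared by exact permutation over 400 arrangements. DESeq2 1.42.0, library totals, loess offsets, no filter, other widths, left-out libraries and a replicate block were tried; the fit was tested on simulated data. Regions named are the 6 largest changes per direction and contrast without overlap between libraries, the highest levels, called regions beside the genes of 17 lists, and the symbols with most regions; the regions beside immediate early genes, Slitrk1, Kcna4 and the 2 microglial genes were also chosen after their values were seen. Folds are left out for regions with libraries of 1 or 2 counts, and none on chromosome 18 is named. Members and lists were chosen with earlier results of these data known. Of 4615 symbols, 4614 matched the RefSeq gene table. RefSeq promoter windows (GRCm38.p6) supplied the sequences.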

Additional observations from a re-analysis of the deposited data

How the results depend on the processing

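Of the percentages of regions called, those that moved by over 1.5 times were DESeq2's 2.64% for the drug in Context mice, 2.46% for CFC in vehicle mice, 23.8% for CFC in drug mice and 0.0121% for the interaction, and 3.25% for CFC in vehicle mice when only those groups were fitted; the cause was not tested. Leaving out a library gave 0.0483 to 0.821% for the drug in CFC mice, 1.5 to 7.74% in Context mice and 3.97 to 7.17% over both. For CFC it gave 0.592 to 7.11% in vehicle mice, 22.6 to 39.0% in drug mice and 32.6 to 42.9% over both, and for the interaction 0 to 0.724%. The lowest values were without HDACi-CFC replicate 3 (4 rises and 0 drops), Veh-Context replicate 3 (94 and 30) and Veh-CFC replicate 1 (5 and 44); without HDACi-Context replicate 3, CFC in drug mice gave 348 rises and 1521 drops. Each library of a comparison moved the drug count in CFC mice by over 1.5 times. Among library measures, the drug difference in the share was 0.216 for regions under 5000 bp and 0.116 for those at least 50 kb from a TSS, where the difference from all other peaks was 0.106; none of the 3 passed. The CFC difference from control-state peaks, not called, turned to −0.0827 at 50 kb or more. With libraries left out the share differed by 0.184 to 0.263 with the drug and −0.753 to −0.674 with CFC. Against other peaks these were 0.0811 to 0.110 and −0.274 to −0.245, against intronic primed enhancers −0.0274 to −0.0083 and −0.169 to −0.150, against active enhancers 0.0806 to 0.115 and −0.189 to −0.155, and against control-state peaks 0.0583 to 0.0853 and 0.0245 to 0.0490. The drug difference in members over 100 kb minus under 10 kb, 0.0280, was −0.00906 to 0.0574. With a replicate block, the differences of 0.233, −0.723, 0.0983, −0.262, −0.161, −0.170 and 0.0729 did not pass: the sign permutation over 6 pairs gave p = 0.03125, its smallest, for −0.723, 0.0983, −0.262 and −0.161 (adjusted p = 0.0781), 0.0625 for −0.170 and 0.09375 for 0.233 and 0.0729. Replicate numbers did not pair libraries: deviations of same-numbered libraries correlated at −0.28 to 0.351 (median 0.000721, 18 pairs). Library totals moved the median of all peaks by −0.128 for CFC in drug mice and that of these regions to −0.47. A region's median count over the libraries had a median of 31, which limits what could be called.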
